A study of Drosophila melanogaster with 2 samples.

Results

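The genes described here are 10 protein-coding genes of Drosophila melanogaster that act in the licensing of DNA replication or, for PCNA, at the replication fork, and are together called the licensing genes, out of 13968 protein-coding genes in the annotation: Mcm2, Mcm3, dpa, Mcm5, Mcm6, Mcm7, Orc1, Orc2, Orc5 and PCNA. They were taken from a list of names, and all 10 matched the annotation by symbol. The data are chromatin immunoprecipitation sequencing peak lists for GATAd, a transcription factor of the GATA family, in whole larvae of the third instar, of both sexes and at the wandering stage. The larvae came from a transgenic line that stably makes GATAd with GFP at its C terminus, and the precipitation used an antibody against GFP. There was 1 group with 2 biological replicates, numbered 2 and 3, and no other genotype, tissue or stage, so the question was where peaks lay at these genes and how alike the replicates were.

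Licensing loads the replicative helicase onto DNA before S phase. The origin recognition complex, which includes Orc1, Orc2 and Orc5, marks origins, and with its partners it loads the ring formed by Mcm2, Mcm3, Mcm4 (the product of dpa in the fly), Mcm5, Mcm6 and Mcm7. PCNA is the sliding clamp that holds DNA polymerases on the template once forks have formed. In the fly, genes of this kind are known targets of the E2F factors and of DREF, which binds the DNA replication-related element (DRE). Larvae of the third instar hold both dividing imaginal cells and larval cells that replicate their DNA without dividing.

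The sequences just upstream of the transcription start sites (TSSs) of Mcm2, Mcm5 and Orc5 are shown first, because Mcm2 and Mcm5 had peaks there and Orc5 had no candidate in any list. All are from the Release 6 reference (dm6), 5' to 3' along the plus strand, on which the 3 genes lie, and each ends at the base before the TSS. They hold no annotated exon. In Mcm2 the capitals mark 2 copies of a 19-base repeat. In Mcm5 they mark the 11 bases centred on each of 2 summits of the list called on pooled replicates, and in Orc5 the DRE.
Mcm2, chr3R:8264670-8264969: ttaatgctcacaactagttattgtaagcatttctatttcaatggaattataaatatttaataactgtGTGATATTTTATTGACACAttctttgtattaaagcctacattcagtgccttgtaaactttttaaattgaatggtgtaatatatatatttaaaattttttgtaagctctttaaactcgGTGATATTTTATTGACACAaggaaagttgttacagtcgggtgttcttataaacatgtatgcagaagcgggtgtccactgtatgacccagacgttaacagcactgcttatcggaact
Mcm5, chr3R:10788227-10788523: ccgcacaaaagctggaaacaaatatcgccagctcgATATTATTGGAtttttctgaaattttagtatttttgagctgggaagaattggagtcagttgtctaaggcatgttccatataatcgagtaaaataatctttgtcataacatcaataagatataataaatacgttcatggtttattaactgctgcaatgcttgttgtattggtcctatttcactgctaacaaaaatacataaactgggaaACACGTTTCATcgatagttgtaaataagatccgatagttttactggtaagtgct
Orc5, chr2L:13829742-13829836: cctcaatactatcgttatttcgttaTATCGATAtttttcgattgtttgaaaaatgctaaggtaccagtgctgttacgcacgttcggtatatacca

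Short sites around E2F words (TTTCCCGC, TTTGGCGC, TTTCGCGC or TTTGCCGC) are shown next, because 6 of the 10 promoters held 1 of these 4 words close to the TSS. Each site is 26 bases long, written along the gene with the word in capitals, and a word on the opposite strand appears as its reverse complement. The site at Orc1, a gene on the minus strand, is not shown.
Mcm2, chr3R:8264997-8265022: agcaaacatTTTCCCGCgcattttcg
Mcm3, chrX:5323840-5323865: cactacgctTTTCCCGCgaaaaaact
Mcm5, chr3R:10788547-10788572: gtaattttgGCGGCAAAatattcgca
Mcm6, chrX:6674391-6674416: cagaaaaagGCGCCAAAaccgagcaa
Orc5, chr2L:13829838-13829863: agggaataaTTTGGCGCcatttcaat

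Mcm2, dpa and Mcm5 had a GATAd peak of the authors' IDR list at the promoter, and the other 7 genes had none. IDR stands for the irreproducible discovery rate, a filter on how well replicates rank the same peaks. That list held 1205 peaks, and they were the 1205 strongest of 30000 candidates called on the pooled replicates. Being in the list thus followed pooled signal and does not show that a given peak ranked alike in both replicates. An overlapping candidate was present in both replicates for 1168 of the peaks. A gene was counted as having a promoter peak when the summit was 1 kb or less from the TSS of one of its protein-coding transcripts. By this rule 3 of the 10 genes had a promoter IDR peak, where 8.77% of all protein-coding genes had one. The list of genes was drawn up with earlier results of these data known, and with 10 genes and no contrast between groups no test was made of this count.

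Signal is the authors' value of each peak, an enrichment over a control whose scale is not stated. It is compared within a list, except where replicates are set against each other at IDR peaks, as a ratio and in a plot. There the lists need not share a scale. In the IDR list signal ran from 43.9 to 547 with a median of 65.2. The chromatin came from whole larvae, so weaker binding and binding in fewer cells cannot be told apart.

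**Figure D1:**
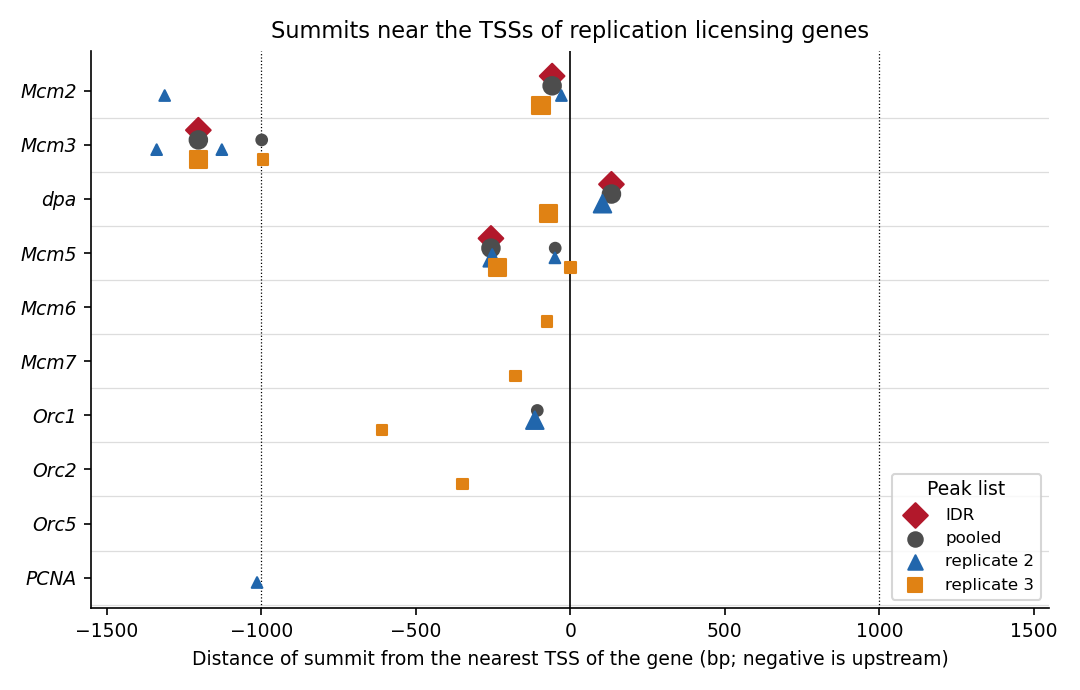
Distance of each peak summit from the nearest TSS of the 10 genes, in bp along the gene, by peak list. Large symbols are peaks at rank 1205 or better in their list, small symbols are weaker candidates, and dotted lines mark 1000 bp. IDR summits (diamonds) lie within the lines at Mcm2, dpa and Mcm5, and just outside them at Mcm3.

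Among the helicase subunits, dpa had the strongest peak. The gene (FBgn0015929) lies on the minus strand of 2R from 7496702 to 7500145 and has 2 annotated TSSs. Its IDR peak, from 7499820 to 7500203, had a signal of 87.7 and ranked 307 of 1205. The summit at 7500012 lay in the 5' UTR of dpa, 133 bp downstream of the outer TSS, and made dpa the only one of the 10 genes with an IDR summit in the gene body, a feature of 4.02% of all genes. Replicate 2 had a candidate of signal 55.6 (rank 222 of 30000) 104 bp downstream of that TSS. Replicate 3 had one of signal 34.1 (rank 606) 71 bp upstream of the inner TSS. Both summits fell inside the IDR peak. The same summit lay 135 bp from the TSS of didum, a class V myosin gene that starts 2 bp away on the other strand.

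Mcm5 (FBgn0017577, 3R from 10788524 to 10791150, plus strand) had a peak of signal 80.2, at rank 383, from 10788075 to 10788458. Its summit lay 257 bp upstream of the Mcm5 TSS and 41 bp from the TSS of Art1, a protein arginine methyltransferase gene that starts 298 bp away on the other strand. The replicates ranked it 302 (replicate 2, signal 48.3) and 924 (replicate 3, signal 28.1), so it stood near the top of both. A further pooled candidate had its summit 49 bp upstream of Mcm5, at a signal of 42.5 and rank 1275, just below the weakest IDR peak. It ranked 1304 in replicate 2 (signal 24.8, summit 50 bp from the TSS) and 5362 in replicate 3 (signal 12.7, summit 1 bp from the TSS). The 2 pooled summits, in capitals in the Mcm5 sequence above, were 208 bp apart. The smallest gap between neighbouring summits in every list was 199 bp, and 4.87% of gaps in the pooled list were under 250 bp.

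The Mcm2 peak was weaker and less even between replicates. Mcm2 (FBgn0014861) lies on 3R from 8264970 to 8267924 on the plus strand, and its peak, from 8264719 to 8265102, had a signal of 46.1 and ranked 1107 of 1205. The summit lay 59 bp upstream of the TSS, in intergenic sequence. Replicate 3 placed it at rank 673 (signal 32.4), 95 bp upstream, and replicate 2 at rank 4045 (signal 17.6), 29 bp upstream. The peak therefore stood among the 1205 strongest of replicate 3 and not of replicate 2. It also lay 460 bp from the TSS of RPA1, which encodes the large subunit of the single-stranded DNA binding protein of the fork and starts 519 bp away on the other strand.

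Mcm3 (FBgn0284442, X from 5323855 to 5326738, plus strand) fell just outside the rule. An IDR peak of signal 46.4, at rank 1094, had its summit 1204 bp upstream of the Mcm3 TSS, in the 5' UTR of Rnp4F and 45 bp from a TSS of that RNA-binding protein gene. It ranked 1201 in replicate 3 (signal 24.6), and the nearest candidate of replicate 2 ranked 2170 (signal 20.7). Within 1 kb of Mcm3 the pooled list held a candidate of signal 13.98 at rank 27252, 999 bp upstream and 160 bp from Rnp4F. Replicate 3 held one of signal 9.93 at rank 10724 there, and replicate 2 held none.

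Mcm6 and Mcm7 had no pooled candidate within 1 kb. At Mcm6 (FBgn0025815, X from 6674387 to 6677176, plus strand) replicate 3 had a candidate of signal 11.0, at rank 8088, 75 bp upstream of the TSS, and 339 bp from that of CG3198. Replicate 2 had none. At Mcm7 (FBgn0020633, 3L from 8891596 to 8894310, plus strand) replicate 3 had one of signal 7.89, at rank 19359, 177 bp upstream, and replicate 2 again had none. Signals in replicate 3 ran down to 6.42 with a median of 8.77, so the Mcm7 candidate was among the weaker part of that list.

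None of the origin recognition genes had an IDR peak within 1 kb, and Orc1 came closest. Orc1 (FBgn0286788) lies on the minus strand of 2R from 7522437 to 7525716. The pooled list had a candidate of signal 36.6 there, at rank 1681, 107 bp upstream of the TSS. Replicate 2 ranked it 696 (signal 33.4, 115 bp upstream), among its 1205 strongest, while the best candidate of replicate 3 lay 610 bp upstream at rank 13520 (signal 9.13), in the 3' UTR of Drat. Of the 2 replicates, Orc1 thus had a candidate among the 1205 strongest in replicate 2 alone, and replicate 3 had none at that site.

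Orc2 (FBgn0015270, 3R from 13964885 to 13967075, plus strand) had a candidate in replicate 3 of signal 13.2 and rank 4859, 349 bp upstream and 362 bp from the TSS of Kots. Another candidate of replicate 3 (signal 12.8, rank 5267) lay in a coding exon of Orc2. The pooled list and replicate 2 held none within 1 kb of Orc2. Orc5 (FBgn0015271, 2L from 13829837 to 13831576, plus strand), which starts 96 bp from the Arp2/3 complex gene Arpc1 on the other strand, had no candidate within 5 kb in any of the 4 lists.

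PCNA (FBgn0005655, 2R from 20261754 to 20262883, minus strand) had no candidate within 1 kb in any list. Replicate 2 had one 1014 bp upstream, of signal 21.6 and rank 1896, whose summit lay 82 bp from a TSS of the ribosomal protein gene RpS18. The 1 other protein-coding gene with a TSS within 1 kb of PCNA was plu, 801 bp away on the same strand, a gene needed to control S phase in the early embryo. Lists of 30000 candidates end at a signal of 13.4 in the pooled list, 9.56 in replicate 2 and 6.42 in replicate 3, so a gene with no candidate may have a signal below these values.

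**Figure D2:**
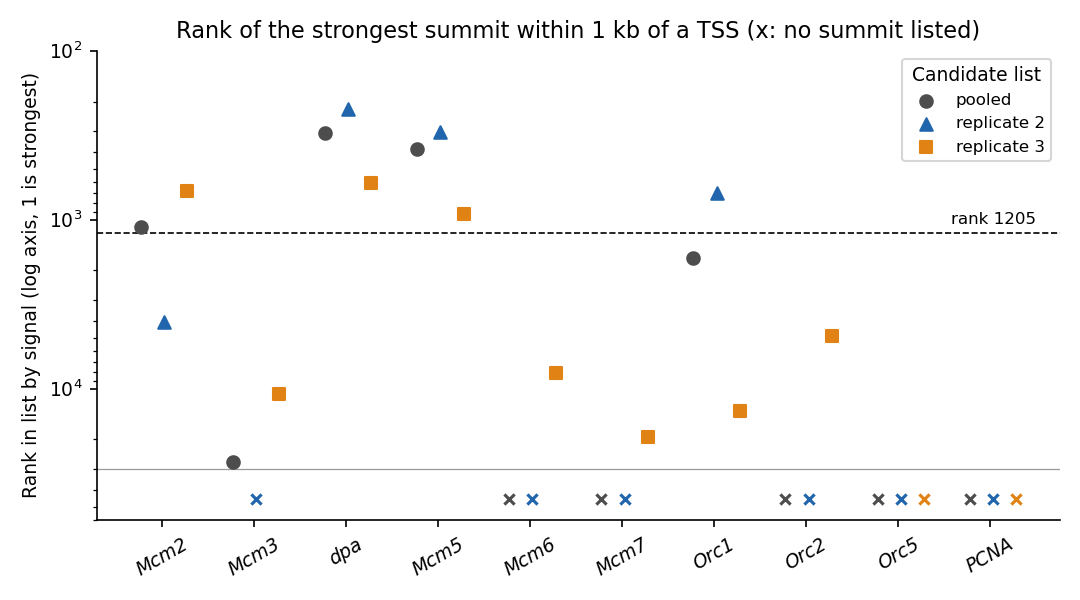
Rank by signal of the strongest summit within 1 kb of a TSS of each gene, in the pooled list and in each replicate (log axis, rank 1 at the top). The dashed line is rank 1205, the grey line is rank 30000, and crosses mark genes with no summit in that list. The genes dpa and Mcm5 lie above the dashed line in all 3 lists, Mcm2 does so in the pooled list and replicate 3, and Orc1 in replicate 2 alone.

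Counted over candidates rather than IDR peaks, the 10 genes were close to all genes in the pooled list and in replicate 2, and above them in replicate 3. A pooled candidate lay within 1 kb of a TSS at 5 of them (Mcm2, Mcm3, dpa, Mcm5 and Orc1), and at 46.3% of all genes. Replicate 2 had one at 4, against 44.6% of all genes. Replicate 3 had one at 8, against 53.9%, the additional ones being Mcm3, Mcm6, Mcm7 and Orc2, all at ranks beyond 1205. These lists include background by design, and the shares of all genes show how often a candidate fell near a TSS.

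Among the 1205 strongest candidates of each replicate alone, each replicate gave 3 genes. In replicate 2 they were dpa, Mcm5 and Orc1, and 7.97% of all genes had such a summit. In replicate 3 they were Mcm2, dpa and Mcm5, and 9.34% did. Both dpa and Mcm5 were in the top of both replicates, as were 5.39% of all genes. Leaving out replicate 3 therefore exchanged Mcm2 for Orc1.

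**Figure D3:**
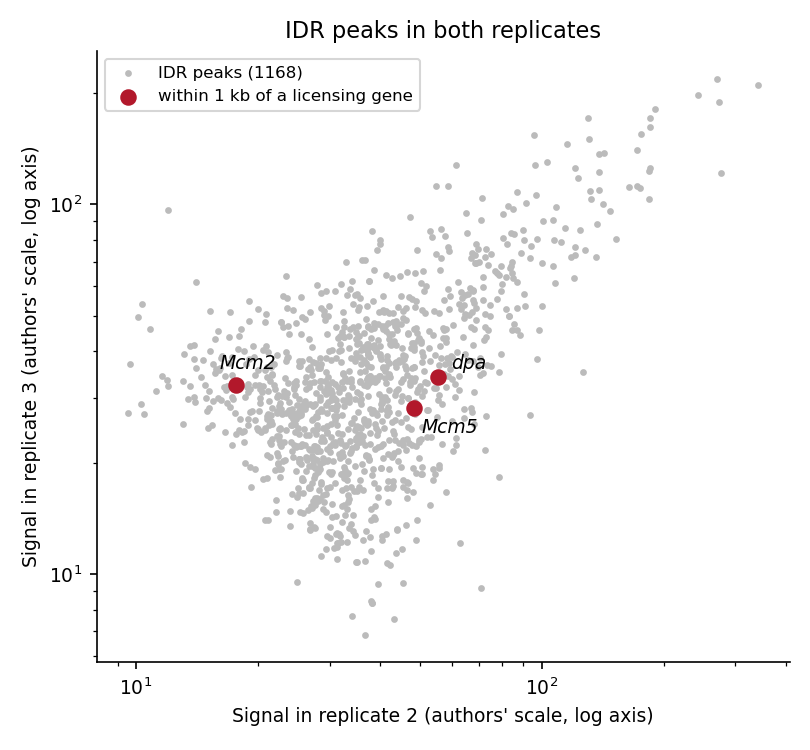
Signal of the IDR peaks in replicate 2 and in replicate 3 (both log axes, the authors' scale) for the 1168 peaks with a candidate in both; red points are the 3 peaks within 1 kb of a licensing gene. The dpa and Mcm5 peaks lie on the side of replicate 2 and the Mcm2 peak on the side of replicate 3.

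The spread between replicates can be set against all IDR peaks. Signal in replicate 3 was divided by that in replicate 2 for the 1168 peaks with a candidate in both, and on the log2 scale the median of this ratio was -0.20, with an SD over peaks of 0.75. Relative to that median the ratio was 1.08 at Mcm2, a value that 8.65% of the peaks reached or passed. It was -0.51 at dpa and -0.58 at Mcm5, both within 1 SD of the median. Each replicate is 1 library, so these ratios carry no test, and the lists need not share a scale.

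The strength of the candidates varied widely among the 5 genes with a pooled one. Of the 6467 genes with a pooled candidate within 1 kb, 5.49% had a best signal at or above that of dpa, 6.82% at or above Mcm5 and 17.8% at or above Mcm2. For Orc1 the share was 23.9% and for Mcm3 95.3%. Distances of the 3 IDR summits from the TSS (59, 133 and 257 bp) lay within or near the middle of those of the 1225 genes with a promoter IDR peak, whose median was 143 bp and whose quartiles were 78 and 263 bp.

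All 3 genes with an IDR peak share a promoter region with a gene that starts on the opposite strand. Of the 10 genes, 6 have such a head-to-head TSS within 1 kb: Mcm2 with RPA1, dpa with didum, Mcm5 with Art1, Mcm6 with CG3198, Orc2 with Kots (711 bp apart) and Orc5 with Arpc1. A promoter IDR peak was at 3 of these 6 and at 0 of the other 4. Among all protein-coding genes 35.5% have a head-to-head TSS within 1 kb, and of those 16.5% had a promoter IDR peak, against 4.51% of the 9008 genes without one. A gene with a close neighbour can be counted through a peak at that neighbour: when each peak was given only to the gene with the nearest TSS, the Mcm5 peak went to Art1, and Mcm2 and dpa remained, against 5.83% of all genes. The CG3198 and Mcm6 starts were 414 bp apart.

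**Figure D4:**
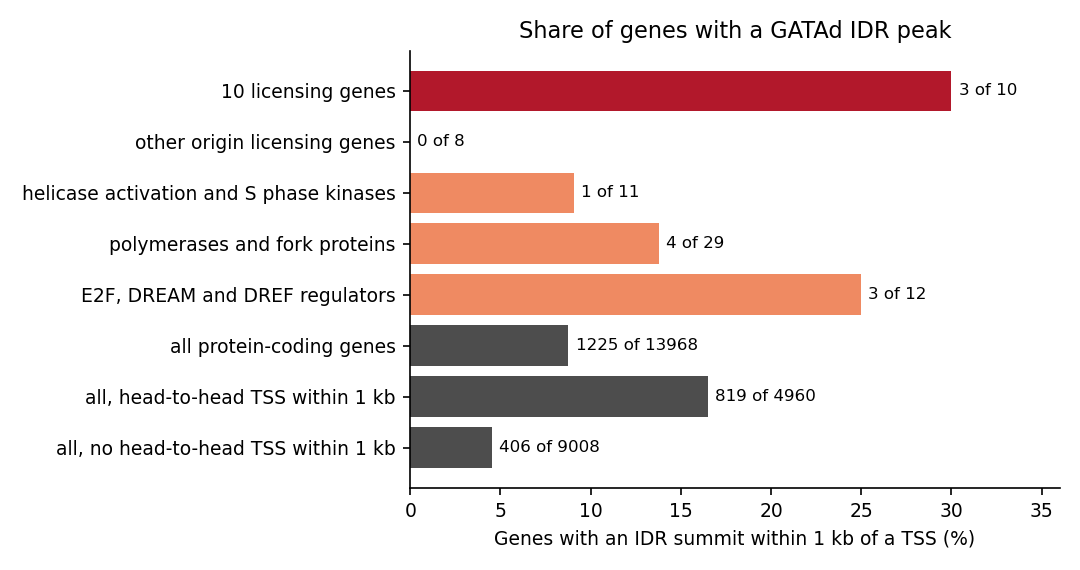
Share of genes with a promoter IDR peak (percent; the counts stand beside each bar) for the 10 licensing genes, 4 lists of other replication genes, all protein-coding genes, and the latter by whether a head-to-head TSS lies within 1 kb. The 10 genes stand at 3 of 10 and all genes at 8.77%, and genes with a head-to-head TSS at 16.5%.

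Other replication genes, in 4 lists of 60 genes, had a promoter IDR peak in 8 cases (13.3%), and 36 of the 60 have a head-to-head TSS. The share was 8.77% among all protein-coding genes and 16.5% among those with a head-to-head TSS. Among the 8 other origin licensing genes, which include Orc3, Orc4, Orc6, Cdc6, dup (the fly Cdt1) and geminin, 0 had one. In the list of 11 genes for helicase activation and S phase kinases, chif had a peak of signal 60.5 at rank 701, 140 bp from a TSS. The gene encodes the activating partner of the Cdc7 kinase, and the summit lay in an intron of chif and also of Hyls1. Of 29 polymerase and fork genes, 4 had one. PolD2, a subunit of DNA polymerase delta, had the strongest, of signal 115 at rank 155 and 120 bp from the TSS. Prim1, the catalytic primase subunit, had one of 57.9 at rank 756. RnrS, the small subunit of ribonucleotide reductase, had one of 45.0 at rank 1153, and RPA1 was counted through the Mcm2 peak.

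Regulators of these genes had a peak in 3 of 12 cases, where 8.77% of all protein-coding genes had one, and 6 of the 12 have a head-to-head TSS. The gene mip120, for a DNA-binding subunit of the Myb-MuvB (DREAM) complex, had a peak of signal 105 at rank 193, 111 bp from a TSS. The summit of the mip120 peak lay in an intron of the gene, away from its outer end. The gene lin-52, for another subunit, had one of 71.1 at rank 515, 584 bp away. Rbf2, a retinoblastoma family protein that works with E2F, had one of 67.5 at rank 566, 129 bp away. The summit of that peak lay in the 5' UTR of another gene, CG32856. Dref, E2f1, E2f2, Dp and Rbf had none. The counts in each list are small and were not tested.

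Promoter words differed among the 10 genes. Words were searched on both strands from 250 bp before to 50 bp after 1 TSS per gene, and positions are counted from the TSS as 0. An E2F word was present at 6 of 10 (Mcm2, Mcm3, Mcm5, Mcm6, Orc1 and Orc5) and in 6.47% of all 13968 promoters. In these genes its first base lay between -6 and 36, as the sites shown above illustrate. Genes with a promoter IDR peak (1225) held one in 7.27% of cases. Of the 3 genes with an IDR peak, Mcm2 and Mcm5 held one in the promoter window. The window at dpa was set on its outer TSS, so E2F words at its inner TSS were not counted. Near the dpa IDR summit, TTTGGCGC and TTTCCCGC lay on the minus strand, that of dpa. Counted along the plus strand, their leftmost bases were at -55 bp and -136 bp from the summit. Both lay towards the inner TSS. The former was within 100 bp of the summit, a window that holds an E2F word at 3.57% of all IDR summits.

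The DRE (TATCGATA) was at Orc2, Orc5 and PCNA, 3 of 10, where 8.94% of all promoters and 13.3% of those of genes with a promoter IDR peak held it. At PCNA its first base was at -27 and at Orc5 at -70, while Orc2 held one at -201 and one at 17. None of these 3 genes had an IDR peak within 1 kb, and the IDR summits at Mcm2, dpa and Mcm5 had no DRE within 100 bp, where 5.81% of all IDR summits had one.

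**Figure D5:**
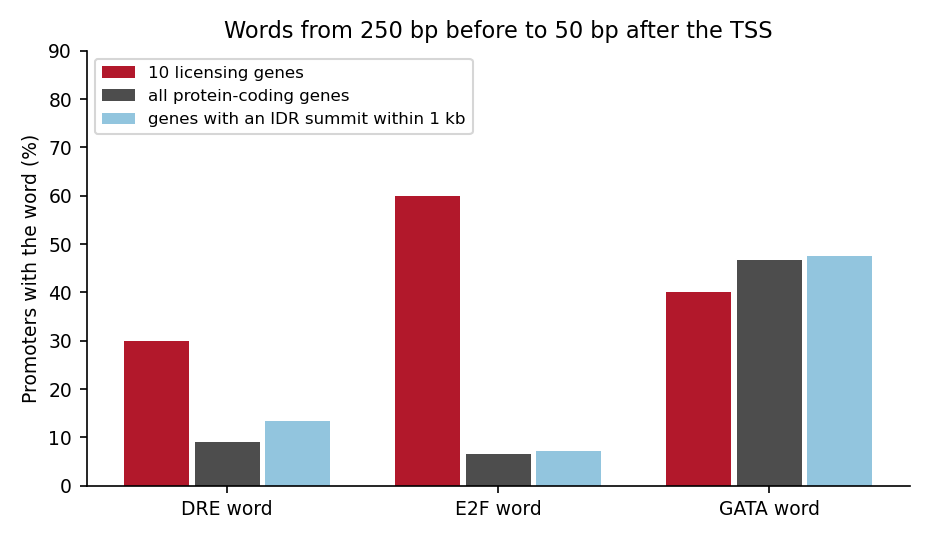
Share of promoters with a DRE, E2F or GATA word (percent, from 250 bp before to 50 bp after 1 TSS per gene) among the 10 licensing genes, all protein-coding genes and the genes with a promoter IDR peak. The E2F word is at 6 of the 10 genes and in 6.47% of all promoters; GATA words are at 4 of the 10 and in 46.8% of all promoters.

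GATA words (AGATAA and its variant AGATAG, or TGATAA and its variant TGATAG), the letters that GATA factors are known to bind, were at 4 of 10 promoters (Mcm3, dpa, Mcm7 and PCNA) and in 46.8% of all promoters. Mcm7, with no IDR peak and only a weak candidate of replicate 3, held 3 of them, with first bases at -133, -117 and -37. Of the 3 IDR summits, the one at Mcm5 alone had a GATA word within 100 bp, its first base 55 bp from the summit on the side of Art1, and 41.2% of all IDR summits had one. The word near the Mcm5 summit lies beyond the Art1 TSS, inside the Art1 gene. Its first base is at -312 from the Mcm5 TSS, outside the 250 bp promoter window. That site is given along Mcm5 on chr3R:10788203-10788226, with the reverse complement of TGATAA in capitals. It is shown because it is the one GATA word so near to an IDR summit of these genes.
Mcm5 GATA site: aaaggtcgcTTATCAacactgccc

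The upstream sequence of Mcm2, by contrast, held no GATA word but a direct repeat. Its 2 exact copies of 19 bases, in capitals in the Mcm2 sequence above, lie from -233 to -215 and from -116 to -98, and the IDR summit lies at -59. Each copy contains the 4 letters GATA followed by T, which is not one of the GATA words searched. Downstream of the Mcm2 TSS, an AGATAA lay inside the IDR peak, its first base 159 bp from the summit. A direct repeat at least this long was found in the 300 bases upstream of 73 of 13968 genes (0.523%). At the other 9 genes the longest such repeat was 8, 9 or 10 bases. The repeat was noticed after the sequence was read, and whether it bears on the peak was not tested.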

How the data were processed

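GATAd was measured by chromatin immunoprecipitation sequencing in 2 biological replicates of 1 group. Per the file headers and the labels, the authors deposited narrowPeak lists on dm6: candidates of replicate 2, of replicate 3 and of both pooled, and the IDR list made from these. The deposited signal (column 7) is an enrichment over a control that is not analysed here. The IDR threshold was not given in the sources used here, nor was the software for alignment and peak calling. Read depth is unknown, and no interval is given. The deposited lists on dm3 were not used, as coordinates were not converted.

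Summits (start plus column 10, written 1-based, 0 peaks past an arm's end) were compared with protein-coding TSSs of Ensembl release 115 (BDGP6), and words with the Release 6 sequence, in Python 3.11.15 with numpy 2.4.6. Peaks were ranked by signal within each list. Replicate values at an IDR peak are those of the overlapping candidate with the nearest summit. Word counts used the canonical transcript of each gene. Window and word searches were checked on simulated positions. All 10 genes are named, as are genes with a TSS within 1 kb of their TSSs or summits, and the genes of the other lists that had an IDR summit; further genes are named for where a summit lay. The genes, lists and rules were chosen with earlier results of these data known. The design has no contrast, so no p-value was computed. Peak lists hold no expression values, so the tissue was not checked against markers. Other distances, the stronger 602 IDR peaks, other gene assignments, single replicates and wider word windows were tried as alternatives.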

Additional observations from a re-analysis of the deposited data

How the results depend on the processing

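Of 21 alternatives to the counts given, 15 stayed within 1.5 times the main count and 6 did not. The count of genes with an IDR summit was 3 within 500 bp (7.83% of all genes), by any base of the peak (9.14%) and by the outermost TSS (8.01%). With a replicate left out, the 1205 strongest candidates of the other stood in for the IDR list, and the count was again 3. The genes were dpa, Mcm5 and Orc1 without replicate 3 (7.97%), and Mcm2, dpa and Mcm5 without replicate 2 (9.34%). The count with an IDR summit was 2 within 250 bp (6.42%) and by the nearest gene only (5.83%), where Mcm5 was lost. It was also 2 with the 602 strongest peaks (4.93%), where Mcm2 was lost. Within 5000 bp it was 5, adding Mcm3 and Mcm6, against 17.0% of all genes; both added summits lie nearer to other genes (Rnp4F and ND-ASHI). The count with a pooled candidate, 5, was 4 without replicate 3 (44.6% of all genes) and 8 without replicate 2 (53.9%). It was also 4 within 250 bp (25.3%) and with only the candidates above the list median (32.8%). Counting any base of the peak in the gene gave 2 genes with an IDR peak in the body, adding Mcm2, and the share of all genes rose from 4.02% to 8.12%. With promoters of 500 bp before to 100 bp after the TSS, GATA words were at 7 genes, against 68.9% of promoters. With windows of 200 bp, E2F words were at 2 of the 3 IDR summits and GATA words at 2, against 8.13% and 60.7% of all IDR summits. The 6 that moved past 1.5 times came with a wider window or rule, except the pooled count without replicate 2. The cause of these moves was not tested. No paired analysis was possible because there is 1 group. With 2 libraries of unknown depth, a missing candidate does not show that GATAd is absent.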

Other observations

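An IDR peak of signal 84.7, at rank 332, lay 4961 bp from the Mcm6 TSS and 230 bp from a TSS of ND-ASHI, a subunit gene of respiratory complex I, in an intron of Fum1. Near Orc1, replicate 3 had a candidate of signal 51.3 and rank 221 that lay 4005 bp upstream, in an intron of Drat, while the single candidate within 5 kb of Orc1 in replicate 2, as in the pooled list, was the one at its promoter.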
